A study of Homo sapiens with 12 samples.

Results

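The comparison described here is STING against empty vector in HEK293 cells labelled as knockouts of PERK, the product of EIF2AK3. HEK293 is a human embryonic kidney line. The genes described are all symbols of the deposited table that stood above the table's lowest value of 1 in at least 1 of the 4 knockout libraries, which gave 11906 of 12421 symbols. Cells were transfected for 24 h with 5 ug of vector or of STING plasmid, and RNA was taken from the polysome fractions of a cycloheximide-stabilised lysate, with 2 libraries in each group. Libraries were made from polyadenylated RNA with Smart-seq2, which amplifies full-length copies. The wild-type groups set beside them, vector and STING with 2 libraries each, had the same dose and time and are labelled wild type for PERK. The labels do not say how many knockout clones were used or whether the 2 libraries of a group came from separate cultures, and a p-value here measures library-to-library spread that may be technical only. All cells carried a plasmid, and STING was supplied by that plasmid rather than activated by a ligand in cells with only their own.

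STING is the adaptor of the endoplasmic reticulum that relays the cytosolic DNA sensor cGAS to the kinase TBK1, the transcription factor IRF3 and NF-kB. PERK is a kinase of the same membrane. When active it phosphorylates eIF2alpha, which lowers most translation initiation while mRNAs with upstream open reading frames, such as ATF4, are translated better. This is the integrated stress response, and ATF4 then induces DDIT3, TRIB3, CHAC1 and enzymes and transporters for amino acids. The series concerns whether STING acts on translation through PERK, and the knockout asks what STING does when PERK is missing.

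TMEM173, the older symbol of the STING gene and the one the table uses, checks the transfection. Its polysome level was 23.5 and 43.8 FPKM (fragments scaled to transcript length and mapped fragments) in the vector libraries and 10512 and 7338 in the STING libraries. It rose by 8.05 on the log2(FPKM + 1) scale (SE 0.34, adjusted p = 0.000237 by limma). The wild-type STING libraries stood at 41812 and 40660, so the polysome fractions of the knockout cells with STING held less STING RNA, by a factor of 4.62. Every difference between the genotypes below therefore goes together with a difference in the STING level, and the part of that level in any of them cannot be told apart from the part of PERK. EIF2AK3 itself stood at 1, 1, 1 and 1.15 in the knockout libraries and at 1 in all 4 wild-type libraries. It is at the floor in both genotypes, so the table cannot check the knockout.

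The other facts of these libraries are few. Between 13.3% and 15.2% of the table's symbols stood at the floor in a knockout library, and 2379 of the 11906 genes did so in at least 1 of them, so falls to 1 are understated. Depth is unknown because the table holds no counts. Of the markers of HEK293 identity, 9 of 10 listed were above the floor, and their summed level was 301 and 402 with vector and 356 and 506 with STING. VIM, an intermediate filament gene, stood between 173 and 319 FPKM, while the kidney factors PAX2 and LHX1 were at or near the floor. Markers of blood cells, hepatocytes and fibroblasts were 7 symbols of the table, and each of these lists summed to at most 15.3 FPKM in any knockout library. Total RNA was not analysed here, so more RNA and more ribosomes per RNA cannot be told apart, nor can fewer cells with an RNA and less of it in each.

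The median gene stood lower with STING. Over the 11906 genes the median change was -0.12 on the log2 scale, and it was -0.11, 0.01, -0.27 and -0.10 in the 4 pairings of a STING with a vector library. After median-of-ratios scaling of the libraries the median was 0.03, so the general shift depends on the scale of the deposited values, and all changes of groups below are given relative to the median of all genes. The 5th and 95th percentiles of the change were -0.60 and 0.32. Beside this shift stands a change in composition: the 8 MTRNR2L genes, nuclear copies of a mitochondrial ribosomal RNA sequence, took 7.22% and 10.3% of the summed values in the vector libraries and 11.7% and 15.9% in the STING libraries. In wild-type cells these shares overlapped between the groups, at 8.87% and 14.3% with vector and 12.1% and 16.7% with STING. The part of the MTRNR2L genes in the shift was not tested.

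TMEM173 was the 1 gene of 12254 tested that passed in knockout cells (0.00816%). In wild-type cells 1 gene passed as well (0.00816%), again TMEM173. At an unadjusted p under 0.05, 130 genes (1.06%) stood higher and 814 (6.64%) lower in knockout cells. No other gene therefore rose or fell by this test, and the levels that follow are measurements that did not pass it. As a plainer description, 693 genes (5.82%) had both STING libraries above both vector libraries, and 2689 (22.6%) had both below. After median-of-ratios scaling these counts were 1876 (15.8%) and 1503 (12.6%). Among the 6340 genes with a mean of at least 5 FPKM over the 8 libraries they were 262 (4.13%) and 1865 (29.4%). In wild-type cells 396 genes (3.33%) had both STING libraries above both vector libraries and 6358 (53.4%) both below, with a median change of -0.28. Differences beyond 1 log2 unit from the median were few in knockout cells, 15 higher and 29 lower.

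**Figure D1:**
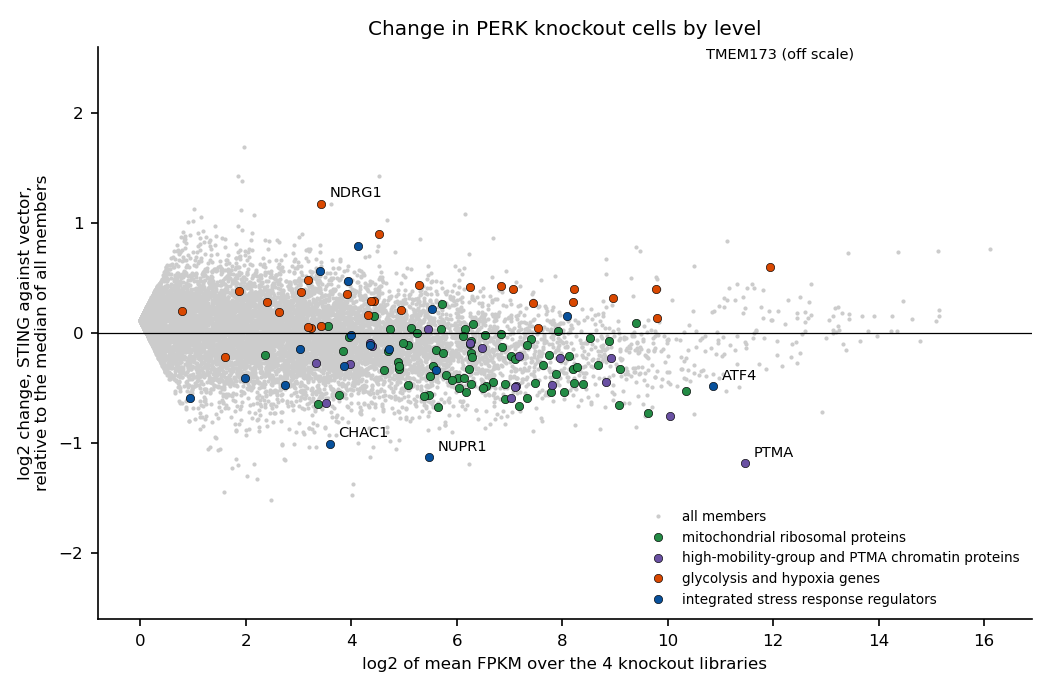
Each point is a gene: the horizontal axis is the log2 of its mean FPKM over the 4 knockout libraries and the vertical axis its log2 change with STING relative to the median of all 11906 genes, with 4 gene lists in colour. Most mitochondrial ribosomal protein genes lie below 0, the glycolysis and hypoxia genes lie mostly above it, and TMEM173 is beyond the axis.

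The median regulator of the integrated stress response stood lower with STING in knockout cells, though not every regulator did. Of 17 regulators, 7 (41.2%) had both STING libraries below both vector libraries and 2 (11.8%) had both above. Over all genes these shares were 22.6% and 5.82%. After median-of-ratios scaling 6 regulators stood lower and 4 higher, beside 12.6% and 15.8% of all genes. Their median was -0.15 relative to all genes, and it lay between -0.25 and -0.02 in the 4 pairings. In wild-type cells the same regulators stood at 0.24 relative to all genes, with pairings between 0.15 and 0.48. Without vector replicate 2 the knockout median was -0.29. With genes below a mean of 5 FPKM left out, the knockout median was -0.06 relative to the genes kept. None of the 17 passed the limma test.

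NUPR1, a stress-induced chromatin protein that ATF4 activates, had the largest difference of the list. It stood at 72.6 and 53.5 FPKM in the vector and 26.6 and 24.9 in the STING libraries, a difference of -1.24 on the log2 scale (SE 0.29, adjusted p = 0.469 by limma). Both STING libraries were near the wild-type levels, which were 24.6 and 15.3 with vector and 22.9 and 15.5 with STING. The vector libraries of the knockout cells are thus the high ones, and the vector group of the knockout stands apart from the other groups for this gene.

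CHAC1, an enzyme that degrades glutathione and a target of ATF4 and CHOP, stood at 14.5 and 19.2 FPKM in the vector and 8.55 and 5.92 in the STING libraries. Here the knockout STING libraries are the low ones, since the wild-type libraries held 25.97 and 16.3 with vector and 21.5 and 23.7 with STING. The difference was -1.12 in knockout cells and 0.12 in wild-type cells. ATF4, the central factor of the response, was abundant throughout. It stood at 2406 and 2055 FPKM in the vector and 1753 and 1224 in the STING libraries, a log2 difference of -0.60 (SE 0.22, adjusted p = 0.598 by limma). After median-of-ratios scaling its STING and vector libraries overlapped. In wild-type cells ATF4 was 2905 and 2549 with vector and 2829 and 2502 with STING, groups that overlap.

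DDIT3, which encodes the pro-apoptotic factor CHOP, lay on opposite sides of its vector level in the genotypes. It stood at 51.9 and 60.7 FPKM in the vector and 43.8 and 37.9 in the STING libraries in knockout cells, and at 57.8, 58.8, 81.7 and 80.4 in wild-type cells (4 wild-type values are given here and below as vector, vector, STING, STING). The vector levels of both genotypes lie side by side, and the STING levels part to both sides of them. The difference of the STING effects was -0.92 on the log2 scale (SE 0.24), with an unadjusted p of 0.00567 and an adjusted p of 0.966 by limma. Of the 11906 genes, 56 (0.47%) shared this pattern of no overlap, lower in knockout and higher in wild-type cells. Another 262 (2.2%) showed the converse.

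ATF3, a factor of the same family that many stresses induce, stood higher in both genotypes. It was at 11.9 and 14.6 FPKM with vector and 20.0 and 23.5 with STING in knockout cells (log2 difference 0.68), and at 16.3, 20.5, 26.1 and 28.8 in wild-type cells (0.56). PPP1R15A, the GADD34 subunit that directs dephosphorylation of eIF2alpha, did not separate the groups, with 40.9 and 48.6 with vector and 48.1 and 47.5 with STING. PPP1R15B, its constitutive relative CReP, stood at 7.23 and 10.6 with vector, against 11.2 and 13.4 with STING. TRIB3, a pseudokinase induced by ATF4, stood at 15.4 and 17.8 with vector, against 9.68 and 15.3 with STING, with no overlap but with 1 STING library close to the vector level. The regulators were therefore not all on the same side: ATF3 and PPP1R15B stood higher while ATF4, DDIT3, NUPR1, CHAC1, TRIB3, CEBPB and ERO1L stood lower.

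**Figure D2:**
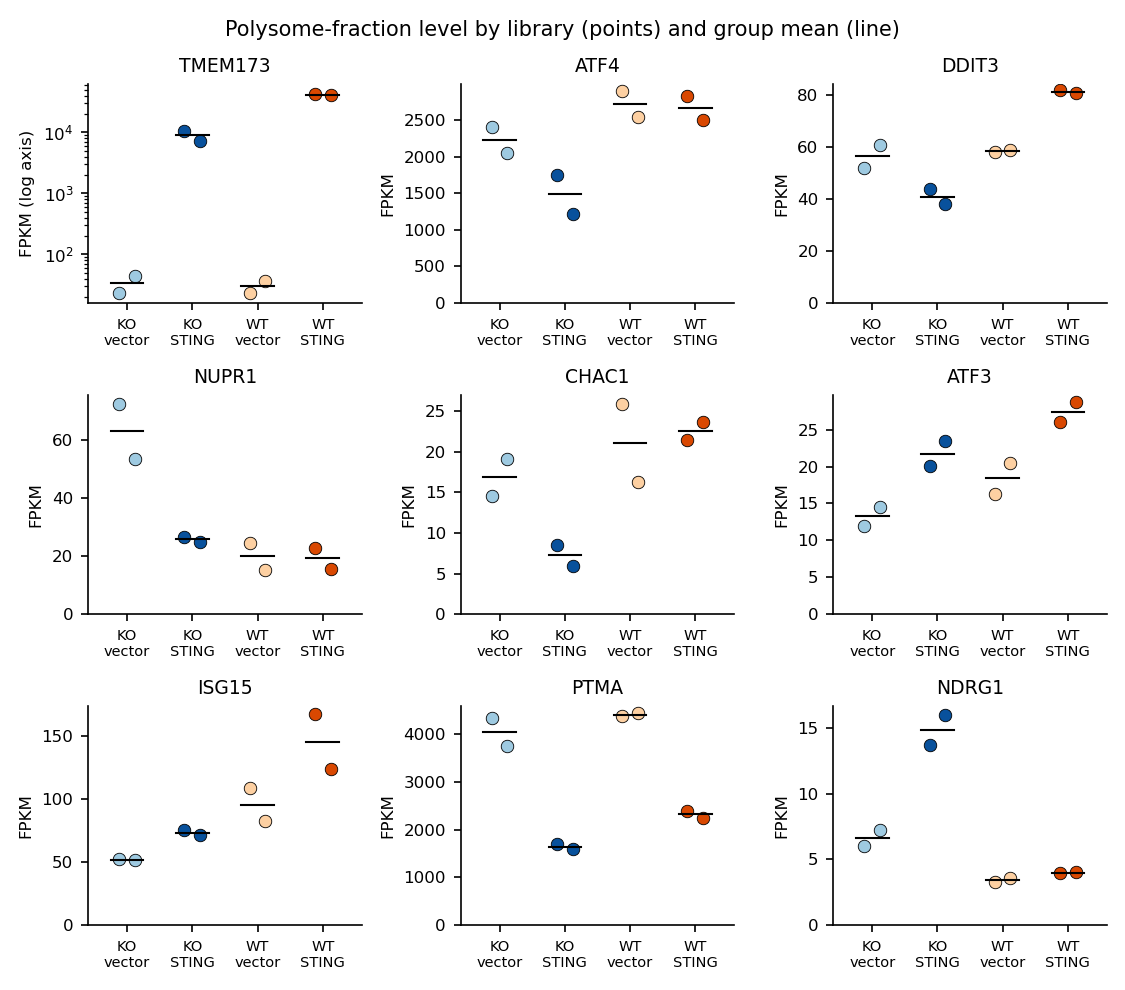
Polysome level in FPKM of 9 genes, each point a library and each line the mean of its group of 2, with knockout cells in blue and wild-type cells in orange, and a log axis for TMEM173 alone. DDIT3 is lower with STING in knockout cells (43.8 and 37.9) and higher in wild-type cells (81.7 and 80.4), and the vector libraries of the knockout hold the highest NUPR1 levels.

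Upstream sequences were searched for the letters of response elements, since several of these genes share regulators. The stretches shown come from the RefSeq promoter table of GRCh38.p14, on the gene's strand, and lie within 250 bases before the annotated start. Capitals mark the match to TGACGTCA (the cyclic AMP response element), TGATGCAA (the C/EBP-ATF element, here on either strand), the kappaB site or the interferon response element.
CHAC1 (chr15:40953236-40953295, plus strand): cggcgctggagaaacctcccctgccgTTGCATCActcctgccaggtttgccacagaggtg
PPP1R15B (chr1:204412011-204412067, minus strand): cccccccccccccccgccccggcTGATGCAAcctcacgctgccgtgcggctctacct
PPP1R15A (chr19:48872337-48872396, plus strand): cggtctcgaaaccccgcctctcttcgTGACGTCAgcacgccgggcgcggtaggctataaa
UFSP2 (chr4:185425979-185426038, minus strand): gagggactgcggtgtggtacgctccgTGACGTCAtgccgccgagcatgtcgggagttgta
CENPW (chr6:126339977-126340036, plus strand): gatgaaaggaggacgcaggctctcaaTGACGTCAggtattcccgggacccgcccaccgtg
ISG15 (chr1:1013364-1013425, plus strand): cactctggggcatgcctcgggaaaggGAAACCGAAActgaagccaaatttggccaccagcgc
NFKBIA (chr14:35404795-35404856, minus strand): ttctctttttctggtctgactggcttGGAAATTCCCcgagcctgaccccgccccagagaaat
The C/EBP-ATF letters stand before CHAC1, which was lower with STING, and before PPP1R15B, which was higher. The cyclic AMP response element likewise stands before UFSP2, which was higher, CENPW, which was lower, and PPP1R15A, whose groups overlapped. A match here goes with no single direction. Of all 35116 promoters in the table, 1.65% held the cyclic AMP response element in these 250 bases on either strand, 0.772% the C/EBP-ATF element, 5.21% the kappaB site and 3.02% the interferon response element. A serum response CArG box (1.16%) was also searched. Of 106 genes the naming rule gave, 78 had a promoter in the table, and 6, 2, 5, 5 and 1 of them held these motifs in that order. The ISG15 stretch holds a further interferon response element that overlaps the marked one.

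The downstream enzymes of the response showed little separation. Of 17 genes for amino acid synthesis and one-carbon enzymes, 2 stood lower without overlap and none higher, and the relative median was 0.04. ASNS, asparagine synthetase, stood at 38.8 and 41.6 FPKM in the vector and 26.7 and 40.0 in the STING libraries, where 1 STING library alone is low. Of 12 amino acid transporters 3 (25%) stood lower. SLC3A2, the heavy chain of several such transporters, was 92.2 and 114 with vector and 73.5 and 91.7 with STING. Of 20 aminoacyl-tRNA synthetases, which charge tRNAs, 4 (20.0%) stood lower and none higher. CARS, the cysteinyl synthetase, was 12.3 and 10.4 with vector and 8.06 and 7.13 with STING. The pairings of the synthetases ran from -0.53 to 0.24 relative to all genes, so the side of their median depended on the libraries paired. On the deposited scale their summed level was 532 and 712 FPKM with vector and 471 and 579 with STING, lower for both replicate numbers. The labels do not say whether these numbers mark pairs. Among 22 mRNAs listed for upstream open reading frames the relative median was -0.13, with pairings from -0.13 to 0.00, and 6 (27.3%) stood lower and 1 higher. Without vector replicate 2 it was -0.05, and with genes below a mean of 5 FPKM left out it was -0.06. Over all genes 22.6% stood lower and 5.82% higher without overlap, so the shares of the transporters, the synthetases and this list lie near that background.

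Chaperones of the endoplasmic reticulum, which ATF6 and IRE1 induce without PERK, also had pairings on both sides of the median of all genes. Of 33 genes 9 (27.3%) stood lower and 1 (3.03%) higher, beside 22.6% and 5.82% of all genes. The relative median was -0.08 with pairings from -0.50 to 0.32. Their summed level on the deposited scale was 3754 and 3974 FPKM with vector and 2838 and 2971 with STING. HSPA5, the chaperone BiP, stood at 8.81 and 19.1 FPKM in the vector and 7.97 and 14.7 in the STING libraries. Its replicates differ more than its groups, and it was lower with STING for both replicate numbers. SEC61B, a subunit of the translocon, was 900 and 807 with vector and 622 and 449 with STING. DERL3, a factor for degradation of misfolded proteins, was 42.2 and 42.5 with vector and 54.2 and 54.9 with STING. In wild-type cells 26 of the 33 stood lower and the relative median was -0.28, and DERL3 was lower there, at 26.9 and 24.7 against 17.7 and 19.2.

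Most genes of the STING pathway itself overlapped between the groups on the deposited scale. Of 13 genes of the pathway and the eIF2alpha kinases, TMEM173 and TREX1, a nuclease that removes cytosolic DNA, stood higher and none lower. That is 15.4% higher, where 5.82% of all genes stood higher and 22.6% lower. After median-of-ratios scaling 6 of the 13 stood higher and none lower, beside 15.8% and 12.6% of all genes. TREX1 is near the floor, at 1.49 and 1 with vector and 2.70 and 1.87 with STING. IRF3 stood at 65.9 and 44.98 FPKM in the vector and 49.99 and 47.99 in the STING libraries. Of 16 interferons, chemokines and IRF/STAT factors 2 (12.5%) stood higher and 3 (18.8%) lower without overlap. Their relative median was 0.145, with pairings from -0.08 to 0.22, beside 0.16 in wild-type cells. With genes below a mean of 5 FPKM left out, the knockout median was 0.41 relative to the genes kept. IFNB1, the interferon that IRF3 induces, was at the floor in both vector libraries and at 1.37 and 1.42 with STING. That is above the floor by less than 1 FPKM and too low to be read as induction. CCL5, a chemokine that IRF3 and NF-kB activate, was 17.3 and 11.9 with vector and 25.5 and 15.9 with STING. The groups overlap, though it was higher with STING for both replicate numbers.

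Interferon-stimulated genes did not separate as a group. Of 22 genes 3 stood higher (13.6%) and 4 lower (18.2%), beside 5.82% and 22.6% of all genes. The relative median was 0.02. That median was 0.13 without vector replicate 1, 0.10 without STING replicate 2 and -0.05 without STING replicate 1. ISG15, a ubiquitin-like protein that type I interferon induces, was the highest above its vector level among those over 5 FPKM. It stood at 52.6 and 51.6 with vector, against 75.3 and 71.8 with STING, a log2 difference of 0.49 (SE 0.21, adjusted p = 0.647 by limma), beside 0.60 in wild-type cells. IFI6, a mitochondrial protein of the same response, was lower, at 94.4 and 112 against 67.5 and 82.5. RNF135, a ubiquitin ligase of the RNA sensor RIG-I, was among the 12 genes with the smallest p above their vector level. It stood at 8.42 and 7.95 with vector, against 12.4 and 13.9 with STING, and the groups are well apart.

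The NF-kB list was as mixed, with 3 of 21 genes (14.3%) higher and 4 (19%) lower, beside 5.82% and 22.6% of all genes. Its relative median was 0.08. Without vector replicate 2 that median was -0.06, and without vector replicate 1 it was 0.20. NFKBIA, the inhibitor IkBalpha that NF-kB induces, stood at 97.9 and 92.7 FPKM in the vector and 106 and 108 in the STING libraries. Its log2 difference was 0.17 in knockout and 0.71 in wild-type cells, where the levels were 72.9, 81.4, 127 and 126. IER3, an early survival factor, stood at 64.4 and 34.2 with vector, against 98.3 and 87.0 with STING. The vector libraries of IER3 lie far apart, and its log2 difference of 0.96 was 0.51 without vector replicate 2 and 1.41 without vector replicate 1.

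Immediate early genes, the first genes that signals and stresses induce, stood slightly above the median. Of 30 genes 9 (30.0%) were higher without overlap and 3 (10.0%) lower, against 5.82% and 22.6% of all genes. The relative median was 0.14, with pairings from 0.03 to 0.41. It was 0.32 without STING replicate 2, 0.31 without vector replicate 1 and 0.083 without vector replicate 2. In wild-type cells the relative median was 0.37 and 10 were higher. BTG2, an antiproliferative p53 target, stood at 11.8 and 9.94 FPKM in the vector and 14.8 and 18.3 in the STING libraries. JUNB, a subunit of AP-1, stood at 14.4 and 11.8 with vector, against 16.2 and 17.2 with STING. MAFF, a small Maf factor, was near the floor, at 2.87 and 2.49 against 3.88 and 3.73. Of 25 p53 targets 5 (20%) stood higher and 2 (8%) lower. Of 23 pro-apoptotic genes 4 (17.4%) stood lower and 1 (4.35%) higher, shares near those of all genes (22.6% and 5.82%). Of 15 survival genes 6 (40.0%) stood lower and 2 (13.3%) higher, and their relative median was 0.08, but -0.13 without vector replicate 2. After median-of-ratios scaling 2 of the 15 stood lower and 3 higher, beside 12.6% and 15.8% of all genes. CYCS, cytochrome c, was 45.7 and 64.5 with vector and 27.2 and 38.5 with STING. TNFRSF10B, the death receptor DR5 and a CHOP target, was 16.3 and 16.2 with vector and 19.3 and 19.1 with STING, so it stood higher where DDIT3 stood lower.

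Glycolysis and hypoxia genes stood above the median as a group. Of 29 genes 7 (24.1%) were higher without overlap and none lower, beside 5.82% and 22.6% of all genes. After median-of-ratios scaling 16 were higher, where 15.8% of all genes were. The relative median was 0.29, with pairings from 0.08 to 0.49, against -0.08 in wild-type cells with pairings from -0.17 to -0.05. Without vector replicate 1 the knockout median was 0.15, and without STING replicate 2 it was 0.17. None passed the limma test. NDRG1, a gene that hypoxia and other stresses induce, stood at 6.03 and 7.22 FPKM in the vector and 13.8 and 16.0 in the STING libraries, a log2 difference of 1.06 (SE 0.20, adjusted p = 0.380 by limma). Its wild-type levels were 3.27, 3.55, 3.95 and 4.04, so the STING libraries of the knockout are the high ones. ANKRD37, a target of the hypoxia factor HIF1, stood at 19.02 and 14.4 with vector, against 32.2 and 26.4 with STING. GAPDH, a glycolytic enzyme, stood at 3644 and 2907 with vector, against 4694 and 4401 with STING.

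**Figure D3:**
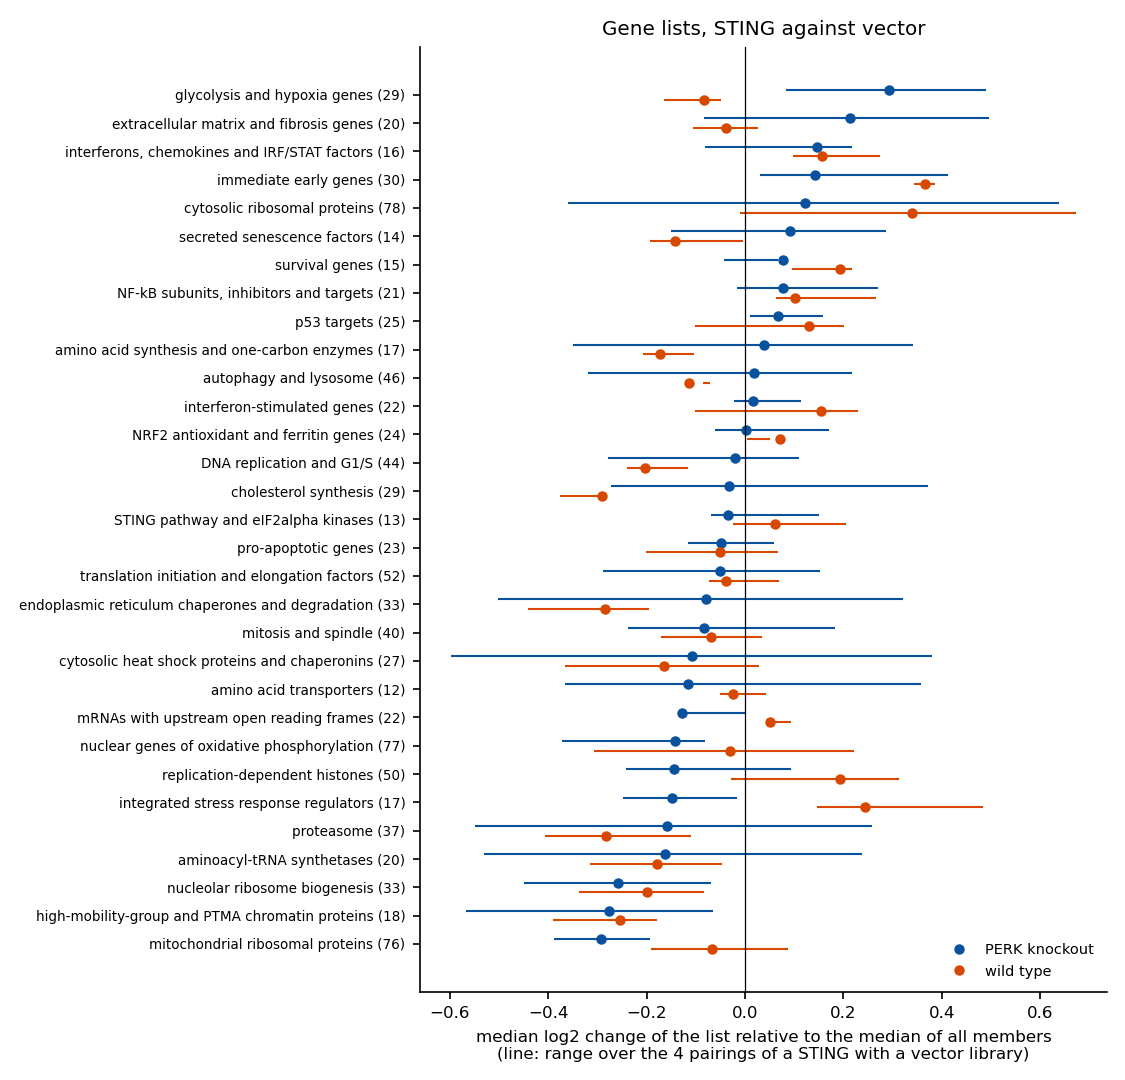
Points are the median log2 change of each gene list with at least 10 genes above the floor, relative to the median of all genes, in knockout cells (blue) and wild-type cells (orange), with lines for the range over the 4 pairings of a STING and a vector library and the number of genes in brackets. In knockout cells the glycolysis and hypoxia genes are at 0.29 and the mitochondrial ribosomal proteins at -0.29, and the lines of many other lists cross 0. With an even number of pairings and several genes, a median over the groups can lie outside the range over pairings.

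Other genes with a small p above their vector level had varied functions. UFSP2, a protease that matures the ribosome modifier UFM1, stood at 9.51 and 5.83 FPKM in the vector and 18.8 and 14.7 in the STING libraries. SAT1, which acetylates polyamines, stood at 31.9 and 26.5 with vector, against 52.4 and 46.1 with STING, while its wild-type levels of 30.7, 36.7, 30.9 and 33.0 show no such gap. The kinase MAP4K2 was 3.93 and 3.34 against 7.75 and 5.70. The adaptor CRKL was 12.0 and 14.9 against 23.7 and 20.3. The membrane protein LMBR1L was 15.0 and 17.2 against 24.8 and 24.4. EEF2, the factor that moves the ribosome along the mRNA, was 327 and 404 against 474 and 604. These groups do not overlap, and no adjusted p passed.

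Of the genes that stood lower with STING and had a mean of 5 FPKM or more in the knockout libraries, PTMA had the smallest p. It encodes prothymosin alpha, a small acidic chromatin protein. It stood at 4339 and 3751 FPKM in the vector and 1696 and 1589 in the STING libraries, so the vector level was 2.46 times as high. The log2 difference was -1.30 (SE 0.17, adjusted p = 0.132 by limma), and in wild-type cells it was -0.93, from 4389 and 4443 to 2403 and 2249. PTMA is thus lower with STING in both genotypes, and the difference between them was -0.37 (unadjusted p = 0.158). It belongs to a list of high-mobility-group and related chromatin proteins, of which 11 of 18 (61.1%) stood lower without overlap and none higher. Over all genes 22.6% stood lower and 5.82% higher. The relative median of the list was -0.28 in knockout and -0.25 in wild-type cells. The knockout value ran from -0.42 without STING replicate 2 to -0.18 without STING replicate 1. HMGN2, a nucleosome-binding protein, stood at 1259 and 1479 with vector, against 759 and 731 with STING. HMGA2, an architectural DNA-binding protein, stood at 15.8 and 13.6 with vector, against 9.26 and 7.43 with STING. PTMA, HMGN2, GAPDH and the ribosomal protein genes have many processed pseudogenes, and how reads that match several copies were assigned is not given in the sources used here.

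Replication-dependent histone mRNAs mostly lack the poly(A) tails by which these libraries were primed, and their levels were uneven. Of 50 such genes 18 (36.0%) stood lower and 4 (8.0%) higher, beside 22.6% and 5.82% of all genes. Their relative median was -0.14, with pairings from -0.24 to 0.09. Without STING replicate 2 that median was -0.03. HIST1H2BF stood at 29.02 and 20.3 FPKM in the vector and 9.63 and 6.67 in the STING libraries. HIST1H3F stood at 10.3 and 9.17 with vector, against 4.98 and 2.30 with STING. HIST1H2AD was 41.3 and 18.8 against 9.09 and 15.7, and the lower vector library is close to the higher STING library. Histone genes are near-identical copies, and how the authors' counting split shared reads among them is not given in the sources used here, so these levels are uncertain.

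The other genes with a small p below their vector level had varied functions. CENPW, a centromere protein, stood at 388 and 410 FPKM in the vector and 204 and 206 in the STING libraries, with replicates close together in each group. RBM8A, a core protein of the exon junction complex, stood at 54.5 and 63.1 with vector, against 27.3 and 30.4 with STING. ZCRB1, of the minor spliceosome, stood at 131 and 130 with vector, against 68.5 and 66.2 with STING. CWC15, another spliceosome protein, was 73.4 and 87.3 against 44.1 and 34.5, and ZCCHC17, a nucleolar RNA-binding protein, was 118 and 123 against 65.1 and 69.6. TCEAL8 was 215 and 251 against 118 and 113, NGFRAP1 1926 and 1812 against 997 and 1069, C7orf49 68.8 and 76.1 against 34.4 and 39.4, and C12orf45 138 and 137 against 76.0 and 71.4. All of these were lower in wild-type cells as well by the direction of the log2 difference, from -0.26 for C12orf45 to -0.67 for RBM8A and C7orf49, beside a median of -0.28 over all genes there. GNG11, a subunit of heterotrimeric G proteins, stood at 23.7 and 25.1 with vector, against 5.22 and 10.5 with STING, against wild-type levels of 8.93, 7.14, 5.54 and 5.28. As with NUPR1, the knockout vector libraries are the high ones. UCP2, a carrier of the inner mitochondrial membrane, stood at 213 and 239 with vector, against 124 and 160 with STING, and at 145, 181, 86.1 and 87.7 in wild-type cells.

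Mitochondrial ribosomal proteins, encoded in the nucleus and translated in the cytosol, were the list of more than 10 genes with the lowest relative median. Of 76 genes 43 (56.6%) had both STING libraries below both vector libraries, and none had both above. Among all genes 22.6% lay below and 5.82% above. After median-of-ratios scaling 29 of the list stood lower and 1 higher, beside 12.6% and 15.8% of all genes. The relative median was -0.29, and it lay between -0.39 and -0.19 in the 4 pairings. In wild-type cells it was -0.07, with pairings from -0.19 to 0.09. At an unadjusted p under 0.05, 29 of the 76 stood lower and none higher, and none passed after adjustment. After quantile normalization the relative median was -0.14. MRPL55 stood at 1097 and 924 FPKM in the vector and 537 and 584 in the STING libraries. MRPL46 stood at 58.6 and 67.3 with vector, against 30.1 and 42.8 with STING. MRPL18 stood at 164 and 205 with vector, against 101 and 112 with STING.

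The other mitochondrial and ribosome-making genes stood below the median less evenly. Of 77 nuclear genes of oxidative phosphorylation 28 (36.4%) stood lower and none higher, beside 22.6% and 5.82% of all genes. After median-of-ratios scaling 11 of the 77 stood lower and 4 higher, beside 12.6% and 15.8% of all genes, so most of this excess depended on the scale. Their relative median was -0.14, with pairings from -0.37 to -0.08. After quantile normalization that median was -0.02, and it ran from -0.33 without vector replicate 2 to -0.05 without STING replicate 2. NDUFA5, NDUFC2 and NDUFS6, subunits of respiratory complex I, had log2 differences of -0.80, -0.78 and -0.75. NDUFS6 stood at 826 and 632 FPKM in the vector and 462 and 398 in the STING libraries. Of 33 nucleolar genes of ribosome biogenesis 14 (42.4%) stood lower and none higher, and the relative median was -0.26, beside -0.20 in wild-type cells. It was -0.17 without vector replicate 2. NOP16, a nucleolar protein of the large subunit's assembly, stood at 137 and 181 with vector, against 76.9 and 86.1 with STING. WDR43, of the small subunit processome, stood at 18.0 and 21.3 with vector, against 11.2 and 10.6 with STING. HSPE1, the mitochondrial chaperonin partner, stood at 930 and 1034 with vector, against 535 and 539 with STING.

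Cytosolic ribosomal proteins, whose mRNAs carry a 5' pyrimidine tract and are among the most heavily translated, behaved unlike the mitochondrial set. Of 78 genes 9 (11.5%) stood higher and 6 (7.69%) lower without overlap, beside 5.82% and 22.6% of all genes. The relative median was 0.12, but the pairings ran from -0.36 to 0.64, so its side depended on which libraries were paired. RPL13A stood at 1347 and 1045 FPKM in the vector and 1836 and 1521 in the STING libraries, RPL30 at 2108 and 2400 against 2499 and 3198, and RPL9 at 3012 and 2711 against 3760 and 3267. Of 52 translation factors 15 (28.8%) stood lower and 4 (7.69%) higher. EIF1AX, which scans for start codons, stood at 31.3 and 45.4 with vector, against 15.5 and 27.3 with STING. EIF3J, a loosely bound subunit of eIF3, stood at 19.2 and 21.2 with vector, against 9.98 and 13.3 with STING. EEF2, given above, stood on the other side of its vector level. For the proteasome (37 genes) and the heat shock proteins (27 genes), the pairings ran from -0.55 to 0.26 and from -0.60 to 0.38. On the deposited scale 5 genes (13.5%) and 5 genes (18.5%) stood lower without overlap and none higher, beside 22.6% and 5.82% of all genes. After median-of-ratios scaling 6 and 5 genes stood lower and 5 and 1 higher, beside 12.6% and 15.8% of all genes. The summed levels of both lists on the deposited scale were lower with STING for both replicate numbers. The sums were 3735 and 5143 against 3181 and 4191 FPKM for the proteasome, and 2539 and 3126 against 1997 and 2389 for the heat shock proteins.

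Some other lists stood near the median or had wide pairings. Their counts can be set beside the 22.6% of all genes that stood lower and the 5.82% that stood higher without overlap. Of 20 extracellular matrix and fibrosis genes 3 stood lower and 1 higher, with a relative median of 0.21 and pairings from -0.08 to 0.50. Of 29 genes of cholesterol synthesis 1 stood lower and 1 higher, with -0.03, against -0.29 in wild-type cells. Of 24 NRF2 antioxidant and ferritin genes 4 stood lower and 3 higher. TXN, thioredoxin, stood at 1430 and 1572 FPKM in the vector and 1032 and 1045 in the STING libraries, and the groups are well apart. Of 46 autophagy and lysosome genes 8 stood lower and 1 higher, and of 14 secreted senescence factors 1 lower and 3 higher. The medians of cell cycle genes depended on single libraries. Of 40 genes of mitosis and the spindle 11 stood lower and none higher, with a relative median of -0.08, and of 44 genes of DNA replication 6 stood lower and 1 higher, with -0.02. Without vector replicate 1 these medians were -0.22 and -0.22, and without vector replicate 2 they were 0.06 and 0.09. UBE2C, a ubiquitin carrier of the anaphase-promoting complex, stood at 708 and 708 FPKM in the vector and 540 and 468 in the STING libraries. CCNA2, cyclin A2, stood at 8.77 and 13.4 with vector, against 4.70 and 8.60 with STING.

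Several of the lower lists, though not the nucleolar genes, hold mostly short coding regions, so length was examined for all genes. Coding lengths came from GENCODE release 29, which matched 92.4% of the 11906 genes, and 5859 genes had a mean of at least 5 FPKM and a match. They were divided into 5 groups of equal size by coding length. The shortest, with a median of 459 bases, had a median change of -0.13 relative to all 5859, with pairings from -0.25 to 0.02. In the longest, with a median of 2373 bases, it was 0.05, with pairings from 0.03 to 0.08. Both STING libraries lay below both vector libraries for 45.8% of the shortest and 23.5% of the longest group. In wild-type cells the shortest group stood at 0.06. Across the 5859 genes Spearman's rho of coding length with the log2 change was 0.22 in knockout and -0.11 in wild-type cells. For GC content of the transcript rho was 0.23 in knockout and 0.025 in wild-type cells. By GC content the lowest of 5 equal groups stood at -0.11 and the highest at 0.076, but their pairings ran from -0.29 to 0.083 and from -0.18 to 0.34. These genes share libraries, and the values describe them without a test. The mitochondrial ribosomal proteins had a median coding length of 591 bases and the cytosolic ribosomal proteins 469.5, and the relative medians of these lists stood at -0.29 and 0.12. The nuclear genes of oxidative phosphorylation had a median of 460.5 bases (62 of 77 matched). Of the 77, 36.4% stood lower without overlap, beside 45.8% of the shortest group, which holds only genes with a mean of at least 5 FPKM. That share was 56.6% for the mitochondrial and 7.69% for the cytosolic ribosomal proteins. Any part of length or GC content in the lists was not tested.

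**Figure D4:**
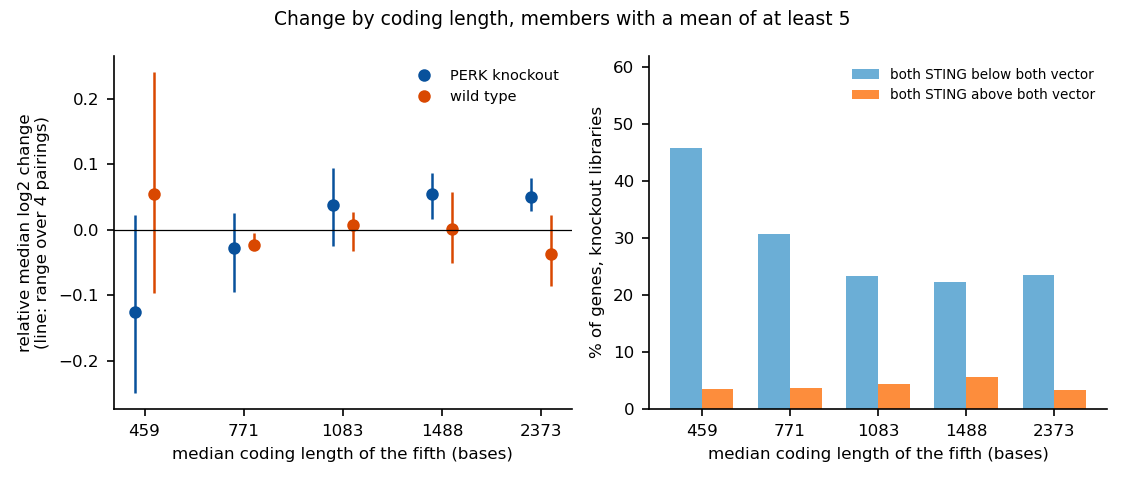
Left, the median log2 change with STING of 5 equal groups of genes by coding length, relative to all 5859 genes, with lines for the range over the 4 pairings, in knockout (blue) and wild-type cells (orange). Right, the share of each group with no overlap between STING and vector libraries in knockout cells: the share below vector is 45.8% in the shortest and 23.5% in the longest group.

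The MTRNR2L genes carry short reading frames for humanin-like peptides, and their summed level stood higher with STING in knockout cells. It was 99602 and 123090 FPKM with vector and 157400 and 186680 with STING. In wild-type cells the sums overlapped, at 114030, 157720, 150590 and 197410. The genes given next were named because their knockout libraries do not overlap, and they make up a small part of the sum. MTRNR2L6 stood at 567 and 546 FPKM in the vector and 868 and 851 in the STING libraries, MTRNR2L3 at 1500 and 1884 against 2502 and 3063, and MTRNR2L5 at 8.05 and 19.1 against 31.2 and 33.6. In wild-type cells MTRNR2L6 was 554, 656, 814 and 1099, and MTRNR2L5 overlapped between the groups. Their reading frames, from GENCODE 29 transcripts, are shown so that the likeness of the copies can be seen, with capitals where a base differs from MTRNR2L8.
MTRNR2L8: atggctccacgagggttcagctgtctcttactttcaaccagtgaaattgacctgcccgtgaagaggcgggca
MTRNR2L1: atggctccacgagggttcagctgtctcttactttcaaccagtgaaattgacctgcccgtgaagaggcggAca
MTRNR2L6: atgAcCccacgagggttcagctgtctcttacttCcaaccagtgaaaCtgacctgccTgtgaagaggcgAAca
MTRNR2L3: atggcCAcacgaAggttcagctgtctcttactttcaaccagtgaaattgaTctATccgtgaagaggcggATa
MTRNR2L5: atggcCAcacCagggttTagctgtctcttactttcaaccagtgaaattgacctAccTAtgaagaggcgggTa
Each frame shown is 72 bases long, and MTRNR2L1 differs from MTRNR2L8 at 1 position, MTRNR2L6 at 7 and MTRNR2L3 and MTRNR2L5 at 8. Less alike and not shown are MTRNR2L10, which differs at 12 positions, and MTRNR2L4, whose frame is 84 bases long. The MTRNR2L genes resemble the mitochondrial ribosomal RNA from which they derive, so their levels are uncertain. Which gene the reads came from cannot be told here.

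The difference between the STING effects in the genotypes was tested for all genes. With limma, 0 of 12254 genes (0%) passed, the smallest adjusted p being 0.966. At an unadjusted p under 0.05 the STING effect was higher in knockout cells for 372 genes (3.04%) and lower for 102 (0.832%). Of the 17 regulators of the integrated stress response, 3 were among the 102 (NUPR1, CHAC1 and DDIT3) and none among the 372. Across 6340 genes with a mean of at least 5 FPKM, TMEM173 among them, the log2 changes in knockout and wild-type cells correlated with Pearson r = 0.27. TMEM173, the transfected gene, lies far from the other genes, with changes of 8.05 and 10.4, and raises this value. The correlation without TMEM173 was not computed, so r does not measure how far the other genes changed alike. The genotypes share no library in these changes, but all 8 libraries come from the same experiment.

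Where the mean over the 8 libraries was 5 FPKM or more, the genes with the smallest interaction p after TMEM173 were STOML1, LRIF1, KRBA1, DDIT3 and PIGQ. LRIF1, a chromatin protein of the inactive X chromosome, stood at 7.22 and 6.25 FPKM in the vector and 2.17 and 2.07 in the STING libraries in knockout cells, and at 7.46, 7.60, 7.14 and 6.06 in wild-type cells. Its knockout STING libraries alone are low. STOML1, a stomatin-like membrane protein, overlapped in knockout cells, at 4.92 and 7.54 against 6.07 and 7.56, while its wild-type libraries were at 10.3, 11.7, 2.96 and 3.62. PIGQ, which acts in the first step of GPI anchor synthesis, stood at 15.2 and 21.2 against 23.4 and 22.3 in knockout cells and at 17.3, 16.2, 9.37 and 8.97 in wild-type cells. KRBA1 stood at 3.64 and 4.87 against 5.47 and 5.85 in knockout cells and at 8.25, 8.35, 3.85 and 4.61 in wild-type cells. For PIGQ the wild-type STING libraries are the low ones, while for KRBA1 the vector libraries of the knockout are as low.

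**Figure D5:**
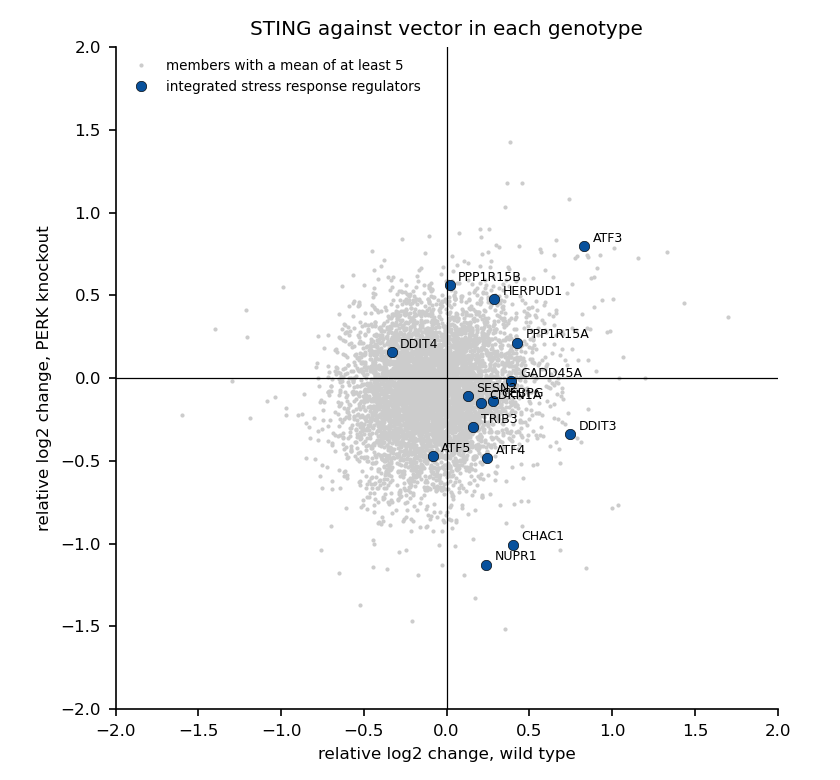
Each point is a gene with a mean of at least 5 FPKM, without TMEM173: the horizontal axis is its log2 change with STING in wild-type cells and the vertical axis that in knockout cells, each relative to the median of its genotype. NUPR1, CHAC1, DDIT3 and ATF4 lie right of 0 and below 0, and ATF3 lies above 0 on both axes.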

How the data were processed

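The knockout experiment's table was deposited by the authors without a named unit and with no value under 1, and it was read as FPKM in which lower values were set to 1. TopHat2 2.1.1, Cufflinks 2.2.1 and genome build hg19 are named in the submitters' processing notes, while gene annotation, filters and the treatment of multi-mapping reads are not stated there. A spike-in mix is named in the labels, and no spike-in row was used here. The deposited FPKM values were taken as log2(FPKM + 1) and tested for the 12254 symbols that were not constant over the 8 libraries, with no further scaling. limma 3.58.1 in R 4.3.3, checked on simulated data, was fitted with a mean for each of 4 groups, an intensity trend and robust eBayes, two-sided, with Benjamini-Hochberg adjustment at 0.05. Changes called relative were taken against the median of all members. The effects on knockout and wild-type cells and their difference (interaction) came from 1 fit. Coding lengths came from GENCODE 29 transcripts and promoters from RefSeq, matched by symbol.

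Named genes were 12 chosen for their role whatever their level, and up to 12 in each direction with the smallest p and no overlap. Up to 3 of each list with no overlap and the largest relative change were added, and 6 with the smallest interaction p. Except for the 12 chosen by role, the mean FPKM was at least 5 in the knockout libraries (for the interaction, over all 8). IFNB1, CCL5, IRF3, TREX1, CEBPB, ERO1L and MAFF were named outside this rule after their values were seen. The members, the 39 lists and the rule were chosen with earlier results of these data known.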

Additional observations from a re-analysis of the deposited data

Results flagged for a closer look

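For 9 of the genes named in the report, both STING libraries lay on 1 side of both vector libraries in knockout cells and on the opposite side in wild-type cells. For each, the difference of the 2 STING effects (knockout minus wild type, log2) was tested by limma, and none passed, the adjusted p being 0.966 throughout. In DDIT3, lower in knockout and higher in wild-type cells, the difference was -0.92 with an unadjusted p of 0.00567. The other 8 were higher in knockout and lower in wild-type cells: MAP4K2 (1.22), KRBA1 (1.19), PIGQ (1.14), RNF135 (0.87), DERL3 (0.82), LMBR1L (0.76), IFNB1 (0.73) and TNFRSF10B (0.57). IFNB1 was below 2 FPKM in the knockout libraries. With the STING plasmid, the polysome fractions of knockout cells held less STING RNA than those of wild-type cells, by a factor of 4.62. The part of this in the differences was not tested. Of all 11906 genes, 56 had the pattern of DDIT3 and 262 that of the other 8.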

How the results depend on the processing

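TMEM173 passed the limma test in knockout cells under each alternative run, and no gene passed the test of the difference between genotypes under any. The median change of all genes was 0.029 after median-of-ratios scaling and -0.000628 after quantile normalization. Genes with both STING libraries above both vector libraries numbered 1876, 1473 and 262 after median-of-ratios scaling, after quantile normalization and with a mean of at least 5, and genes with both below numbered 1503 and 1674 after the first and second of these. With a replicate block 2 genes passed in knockout cells, PTMA joining TMEM173 (log2 difference -1.30, adjusted p = 0.00852). The numbers did not count as a pairing, since the labels do not say what they mark and 1 of the 6 pairs of groups, wild-type with knockout STING, had deviations of same-numbered libraries that correlated at 0.04. Knockout vector with knockout STING had the highest correlation, 0.53. Leaving out 1 library gave 1 to 3 genes in knockout cells: DEFB136 and HBE1 joined without vector replicate 2 and KRTAP6-1 without STING replicate 2, all near the floor elsewhere. In wild-type cells it gave 1 to 2. Of the single genes, the log2 change reversed for IRF3 after median-of-ratios scaling (0.034) and quantile normalization (0.082). With 1 library left out it ran from -0.42 to 0.12 for IRF3, from -0.76 to 0.28 for HSPA5, from -0.025 to 0.22 for PPP1R15A and from -0.13 to 0.40 for STOML1, the reversals being without vector replicate 1 (IRF3, PPP1R15A, STOML1), without vector replicate 2 or STING replicate 1 (HSPA5) and without STING replicate 2 (STOML1). The cause was not tested. The planned scaling by spike-ins was not run, as no row of the table used here carries a spike-in name. With 2 libraries a group and no counts, the spread between libraries limits what can pass.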
